A study of Mus musculus with 87 samples.

Results

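Suz12 knock-out neuronal precursors (NP) were compared with wild-type (WT) NP in 2 comparisons that used the same 2 knock-out (KO) samples and different pairs of WT samples. The genes described are those with a mean scaled read count of at least 10 in both comparisons, which were 16026 of the 26171 genes listed, measured in 6 of the 87 samples of the series. Both genotypes were derived from the 129-B13 mouse embryonic stem cell (ESC) line, and polyA RNA was sequenced. ESC were kept in 20% serum with LIF. For NP, ESC were aggregated into embryoid bodies, retinoic acid was added on day 4, and cells were collected on day 8. The KO is labelled as a full knock-out of Suz12; the labels do not say how it was made, whether the KO samples came from separate clones or whether replicates were separate differentiations, so p-values measure only the spread between these samples. WT replicates 1 and 2 are called WT pair 1, and WT replicates 3 and 4 are called WT pair 2. For comparison there were 3 ESC KO and 3 ESC WT samples, and 2 NP samples each of KO cells rescued with the long Suz12 isoform (KO-L) or the short one (KO-S).

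Suz12 belongs to the core of Polycomb repressive complex 2 (PRC2). This enzyme complex places the histone mark H3K27me3 and keeps developmental regulators silent, among them the Hox clusters. During neural differentiation with retinoic acid, Hox genes at the 3′ end of each cluster are switched on first, and genes toward the 5′ end remain under Polycomb. Neural progenitors express transcription factors such as Sox2 and Pax6, and proneural factors such as Neurog1 and Neurog2 then start neuronal differentiation.

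The deposited tables hold statistics per gene, but the mean scaled count of each table has enough digits to give back the whole reads of each library, which succeeded for 15894 of the 16026 genes. The 6 libraries are named KO a, KO b, WT pair 1 a, WT pair 1 b, WT pair 2 a and WT pair 2 b, because the letters a and b cannot be tied to replicate numbers. They held 22591009, 21397079, 27124396, 25025285, 38795861 and 24448108 reads over the genes whose reads were recovered, in that order. Levels below are scaled reads, that is, reads divided by the library's size factor, and are always listed in that order. Levels of different genes are not compared, since they are not divided by transcript length. The library WT pair 1 a stood apart from the other WT libraries: the SD over genes of its log2 difference from them was 0.863 to 0.946, against 0.463 to 0.703 among the other WT libraries. It also had the lowest neural and the highest pluripotency level of the WT libraries, so results on those genes are given with it named.

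On chromosome 8, 2 WT libraries differed from the other 4 libraries. Relative to the mean of WT pair 1 b and WT pair 2 b, the median log2 level of 806 chromosome 8 genes was 0.49 in WT pair 1 a and 0.43 in WT pair 2 a, and 80.4% and 83.3% of these genes were above that mean. In KO a and KO b the chromosome 8 medians were -0.03 and -0.00. Over the other chromosomes the medians ran from -0.04 to 0.05 in WT pair 1 a and from -0.06 to 0.03 in WT pair 2 a. Each WT pair thus held 1 library with this shift, and the median KO over WT log2 fold change on chromosome 8 was -0.25 with either pair in the authors' deposited tables. In the ESC comparison, which shares no library with NP, the chromosome 8 median was -0.19, the lowest of any chromosome there. KO a had medians of 0.27 on chromosome 6 and 0.23 on chromosome 11, and KO b had 0.21 on chromosome X. DNA copy number was not measured here, and its part in these shifts was not tested.

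**Figure D1:**
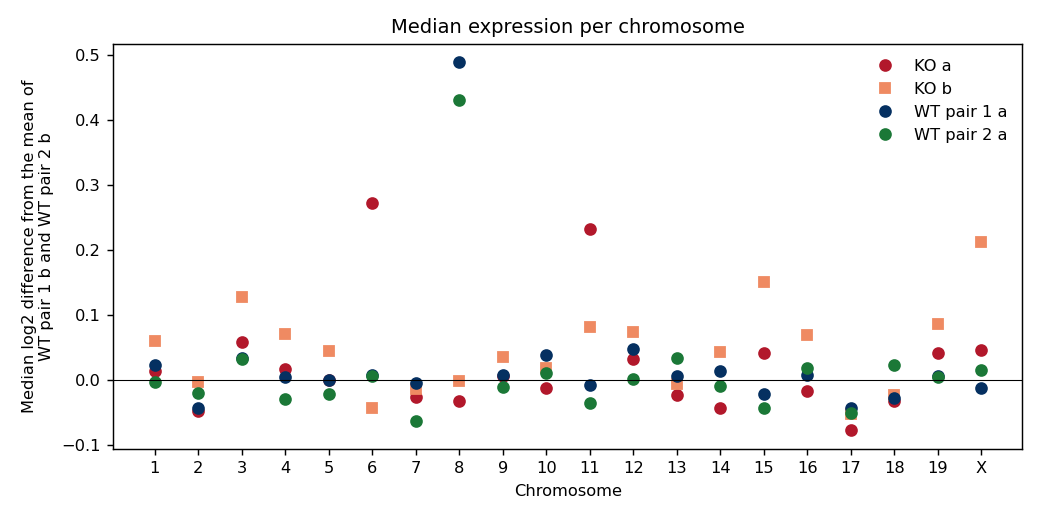
Median log2 difference in level between a library and the mean of WT pair 1 b and WT pair 2 b, for the tested genes of each chromosome (x axis) in 4 libraries (points). WT pair 1 a and WT pair 2 a sit at 0.49 and 0.43 on chromosome 8 and between -0.06 and 0.05 elsewhere.

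Suz12 itself had scaled reads of 1297 and 1347 in the KO libraries, 5410.1 and 6113 in WT pair 1 and 3802 and 3332 in WT pair 2. Both KO libraries were below all 4 WT libraries, and a transcript remained. For Suz12 the authors' deposited tables gave log2 fold changes of -2.14 ± 0.33 (SE; DESeq2 adjusted p = 5.63e-09) with WT pair 1 and -1.45 ± 0.27 (adjusted p = 1.24e-06) with WT pair 2.

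A gene was called when its adjusted p in a deposited table was under 0.05, and "rose" or "fell" is used only for genes called the same way with both WT pairs. With WT pair 1, 1895 genes (11.8%) were higher and 1611 (10.1%) lower in KO. With WT pair 2, 2967 (18.5%) were higher and 2659 (16.6%) lower. Called the same way with both pairs were 1804 higher (11.3%) and 1501 lower genes (9.37%), and 10200 genes were called with neither pair. The 2 comparisons share the KO libraries and are not independent of each other. The 1804 genes that rose had median log2 fold changes of 2.09 and 2.27 with WT pairs 1 and 2, and the 1501 that fell had -1.64 and -1.87. At least an 8-fold change with both pairs was found for 416 of the genes that rose and 271 of those that fell. In the recovered reads, both KO libraries lay above all 4 WT libraries for 1774 of the 1787 risen genes with reads (30.8% of all tested genes did so), and below them for 1472 of the 1487 fallen genes (28.7% of all). The same libraries gave the calls, so this separation follows in large part from the choice of genes and is no further evidence. The opposite call was made for 1 gene, Zscan4f, a marker of 2-cell-like ESC whose family has near-identical copies; it was chosen after its values were seen. Its scaled reads were 549.9 and 114 in KO, 983 and 533 in WT pair 1 and 60.4 and 119 in WT pair 2, and the KO values lay within the range of the WT values.

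Libraries weighed differently in these counts. Refitted with limma on the recovered reads, an alternative chosen after the data were seen, KO against all 4 WT libraries called 3266 genes higher (20.5%) and 2941 lower (18.5%). limma estimated the spread over all libraries in 1 fit, so the comparison with each WT pair also used the other pair. In that fit 1891 genes were higher and 1665 lower with both pairs. Without KO b these counts were 0 and 1, without KO a they were 909 and 913, and without WT pair 1 a they were 2724 and 2583. Without WT pair 2 a or WT pair 2 b they were 747 and 513, and 524 and 343. Against all remaining WT libraries, calls over all genes also fell without KO a or without KO b, and rose without WT pair 1 a. A like change in the counts of list members in such fits, given below, is therefore not particular to a list. Leaving out the genes of chromosome 8 left 1754 of 15209 genes higher (11.5%) and 1400 lower (9.21%) with both pairs.

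**Figure D2:**
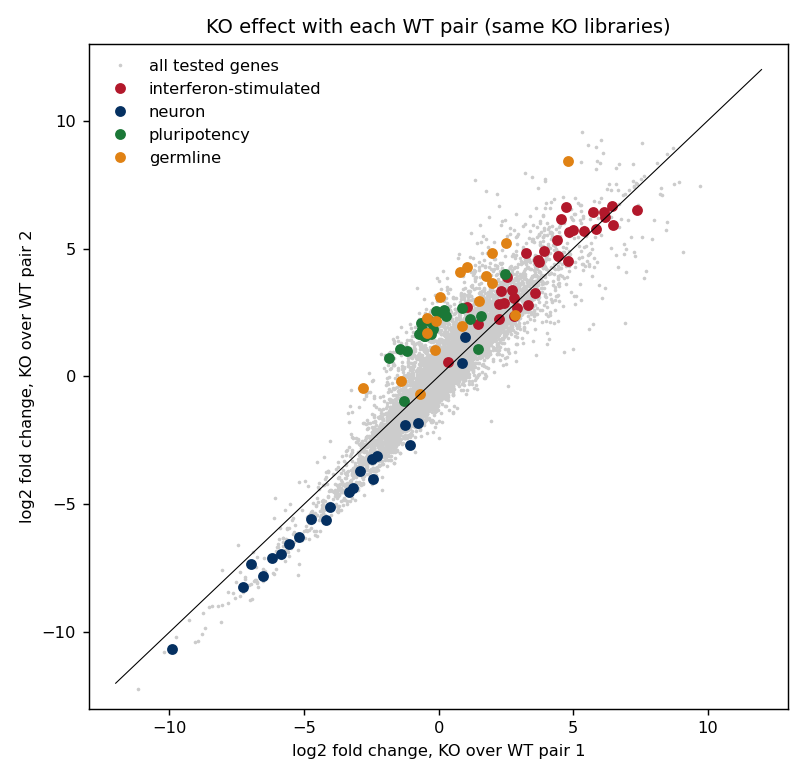
Log2 fold change of KO over WT pair 1 (x axis) and over WT pair 2 (y axis) in the authors' deposited tables; grey points are all tested genes, coloured points the members of 4 gene lists that had reads in both WT pairs, and the line marks equal values. Interferon-stimulated genes lie at the upper right, neuronal genes at the lower left, and most pluripotency and germline genes lie above the line, higher with WT pair 2 than with WT pair 1.

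Among genes with a mean scaled count at or above the median in both comparisons (684.5 and 746.1), the 12 with the largest rise with both pairs were Isg15, Rtp4, Ifit1, Ifit3, Rsad2, Sh3bgr, Usp18, Irgm1, Hoxb13, Rab27b, Lgals3bp and Upk1a. Of these, 6 were in the list of interferon-stimulated genes described next: Isg15 (a ubiquitin-like modifier), Rtp4, Ifit1, Ifit3, Rsad2 (the antiviral protein viperin) and Usp18 (which removes Isg15 from proteins). Irgm1 is a GTPase induced by interferon. Hoxb13 is the most 5′ Hox gene of its cluster, Rab27b is a GTPase of vesicle secretion, and Upk1a is a uroplakin of the bladder lining. The 12 with the largest fall were Rfx4, Fabp7, Miat, Msx3, Myt1, Nhlh2, Mir9-3hg, Dcx, Robo3, C130071C03Rik, Tagln3 and Elavl4. These include genes of neural progenitors (Rfx4, a transcription factor of the neural tube, and Fabp7, a fatty acid binding protein of radial glia), the dorsal neural tube homeobox gene Msx3, the neuronal zinc finger gene Myt1, the microtubule protein gene Dcx, the commissural axon receptor gene Robo3 and the neuronal RNA-binding protein gene Elavl4. In limma fits of KO against all remaining WT libraries that left out 1 library, 21 of these 24 genes were called in each fit. Without KO b, the limma comparisons with each WT pair given above called almost no genes with both. Against all 4 WT libraries and without KO b the adjusted p (limma) was 0.056 for Ifit3, 0.0744 for Rab27b and 0.0504 for Robo3, and Rab27b was not called without KO a either.

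**Figure D3:**
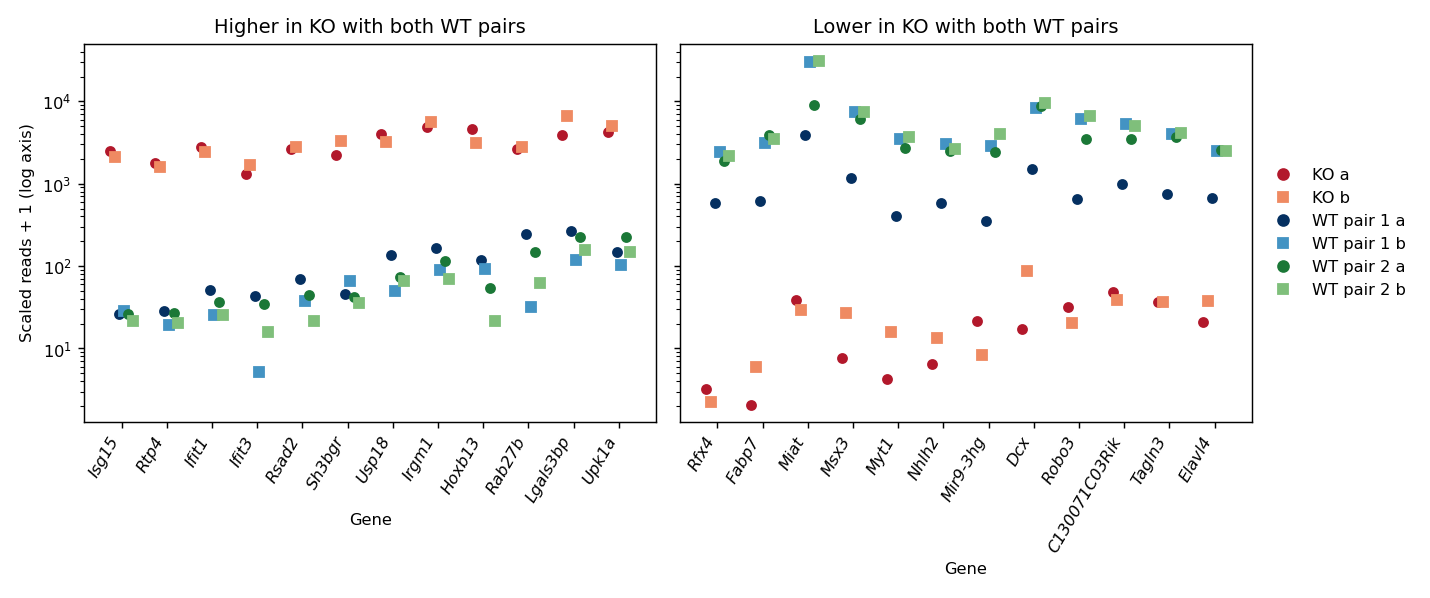
Scaled reads plus 1 (log axis) of the 12 genes with the largest rise (left) and the 12 with the largest fall (right) with both WT pairs; each point is 1 library. For every gene shown the KO libraries are separate from all 4 WT libraries, and for the fallen genes WT pair 1 a is the lowest WT library.

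Of the 33 gene lists examined, that of interferon-stimulated genes had the largest share of members that rose. Interferon-stimulated genes are transcribed when a complex that includes Stat2 and Irf9 binds an interferon-stimulated response element in their promoters, and their products block viral RNA and proteins. Of 34 listed interferon-stimulated genes, all tested, 32 rose and 0 fell, where 11.3% of all tested genes rose; the list was chosen with the rise of some of its members already known. The medians were 3.82 and 4.55 (log2) with WT pairs 1 and 2 in the authors' deposited tables, against -0.00 and -0.01 over all tested genes. Both KO libraries were above all 4 WT libraries for 34 of 34 members, and for 30.8% of all tested genes. The scaled reads summed over the list were 69989 and 63198 in KO, 12261 and 7045 in WT pair 1, and 6897 and 6354 in WT pair 2. In the limma fit of all 6 libraries 33 of the 34 were called higher. Without KO a this was 30, without KO b 28 and without WT pair 1 a 33.

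Isg15 had scaled reads of 2526 and 2119 in the KO libraries and 25.0, 27.8, 25.0 and 20.4 in the WT libraries. Its WT values lay close together, and both KO values were far above them. In the authors' deposited tables the log2 fold changes of Isg15 were 6.44 ± 0.41 (SE; DESeq2 adjusted p = 6.67e-51) and 6.66 ± 0.36 (adjusted p = 7.35e-74). Ifit1, which binds viral RNA, had 2808 and 2423 in KO and 50.9, 24.7, 35.4 and 24.6 in WT. Ifit3 had 1298 and 1672 in KO and 4.12 to 42.2 in WT, with more spread among the WT libraries than Isg15. Ifit3 and its neighbour Ifit3b are near-identical copies, so how their reads were divided is uncertain. The viperin gene Rsad2 had 2643 and 2781 in KO and 68.2, 37.1, 43.7 and 20.4 in WT. For Ifit1 and Rsad2 the authors' deposited tables gave log2 fold changes of 6.15 and 6.43, and of 5.72 and 6.42. Usp18 had 4049 and 3167 in KO and 136, 48.4, 72.9 and 64.3 in WT, and Rtp4 had 1782 and 1615 in KO and 27.8, 18.6, 25.7 and 19.3 in WT. In none of these genes did a WT library reach the lower KO library.

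The rise included genes of the RNA sensors and some of the transcription factors of the pathway. Ifih1 and Ddx58 encode cytoplasmic sensors of double-stranded RNA. Ifih1 had 1074 and 772 scaled reads in KO and 79.7, 58.8, 41.0 and 39.6 in WT, and Ddx58 had 3319 and 2669 in KO and 561, 324, 409 and 294 in WT. In the authors' deposited tables the fold changes of Ifih1 were 3.71 and 4.49 and those of Ddx58 2.79 and 3.08 (log2). Irf7, the factor that amplifies interferon production, differed between the KO libraries (692 and 222), and both were above the WT values of 15.4, 12.4, 15.3 and 19.3. Irf9 had 2336 and 1742 in KO and 499, 364, 441 and 402 in WT. Stat2 and Oas3 were the members not called with both pairs. Stat2 had 1804 and 1443 in KO and 1159, 1336, 965 and 1214 in WT, with adjusted p of 0.536 and 0.161 in the authors' deposited tables from DESeq2. Oas3 had 222 and 135 in KO and 88.3, 76.3, 18.0 and 36.4 in WT, and its adjusted p was 0.245 with WT pair 1 and 0.000325 with WT pair 2 in the same deposited tables by the authors (DESeq2). Oas1a, which rose, has close copies among the Oas genes, so its reads are uncertain in the same way as those of Ifit3.

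The listed interferon genes, Ifnb1, Ifna4, Ifnk, Ifnl2, Ifnl3 and Ifng, were under the expression minimum and were not tested. Other interferon genes were not examined. Ifna4 and Ifnl2 had 0 reads in all 6 libraries. Ifnb1, a type I interferon that infected cells make early, had scaled reads of 0 and 1.22 in KO and 0 in all 4 WT libraries, and Ifng had 1.09 and 0 in KO. With 3 reads as the limit that a count of 0 allows, such genes were not detectable at this depth. The receptor and kinase genes Ifnar1, Ifnar2, Ifngr1, Ifngr2, Jak1 and Tyk2 were all tested, and 0 of 6 were called with both pairs. Both KO libraries were nonetheless above all 4 WT libraries for each of the 6, as for 30.8% of all tested genes. Jak1 had 5246 and 4267 in KO and 3329, 2994, 2959 and 3088 in WT, with adjusted p of 0.244 and 0.0566 (DESeq2, the authors' deposited tables). For Ifnar1 the difference was small, with 3176 and 2939 in KO and 2531, 2817, 2787 and 2881 in WT.

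Genes of major histocompatibility complex class I, which presents peptides to cytotoxic T cells, rose too. Of 13 listed genes, 11 rose and 0 fell, where 11.3% of all tested genes rose, with medians of 2.24 and 2.23 (log2) in the authors' deposited tables. Nlrc5 and H2-T23 were not called, with adjusted p of 0.135 and 0.0629 for Nlrc5, the transactivator of the class, and 0.583 and 0.246 for H2-T23 (DESeq2, the authors' deposited tables). The light chain gene B2m had 6642 and 9549 scaled reads in KO and 1618, 1289, 1969 and 1540.5 in WT. The peptide transporter gene Tap1 had 3340.1 and 3531 in KO and 437, 313, 479 and 389.9 in WT. The immunoproteasome gene Psmb8 had 1671 and 1348 in KO and 74.9, 58.8, 23.6 and 28.9 in WT, the largest change of the list, 4.48 ± 0.41 and 5.84 ± 0.38 (SE) in the authors' deposited tables. The heavy chain genes H2-K1 and H2-D1 have close copies that can share reads; their log2 fold changes were 1.26 and 1.16, and 2.12 and 1.61, in the authors' deposited tables. Summed over the list, KO had 32867 and 38478 scaled reads and the WT libraries had 8002 to 9014, with no overlap.

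Promoter sequences are shown for genes of this response because their members moved together. A promoter here is the RefSeq GRCm38.p6 sequence from 250 bases before to 50 bases after the annotated start, and the motif searched was the interferon-stimulated response element written as GAAA, 2 bases of any kind and GAAA, on both strands, with overlapping matches allowed. Each sequence is cropped to the matches and 40 bases on either side, and ends before the annotated start. It is given 5′ to 3′ on the gene's strand, and capitals mark the matches, which read TTTC, 2 bases and TTTC where they lie on the other strand.
Isg15: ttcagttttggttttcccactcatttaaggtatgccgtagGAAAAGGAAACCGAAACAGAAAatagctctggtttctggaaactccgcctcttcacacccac
Ifit1: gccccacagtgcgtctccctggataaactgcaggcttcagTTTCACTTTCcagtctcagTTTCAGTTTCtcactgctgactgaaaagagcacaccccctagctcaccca
Ifit3: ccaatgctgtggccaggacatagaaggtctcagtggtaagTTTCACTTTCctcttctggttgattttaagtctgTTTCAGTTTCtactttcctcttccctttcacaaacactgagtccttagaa
Oas1a: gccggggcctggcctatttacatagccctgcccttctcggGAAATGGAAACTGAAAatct
Rsad2: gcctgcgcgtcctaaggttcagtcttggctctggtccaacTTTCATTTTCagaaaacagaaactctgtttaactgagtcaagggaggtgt
Bst2: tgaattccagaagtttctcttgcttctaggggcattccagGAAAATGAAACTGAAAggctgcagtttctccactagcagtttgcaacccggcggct
The positions are chr4:156200835-156200936 (minus strand) for Isg15, chr19:34640745-34640853 (plus) for Ifit1, chr19:34583333-34583456 (plus) for Ifit3, chr5:120907526-120907585 (minus) for Oas1a, chr12:26456523-26456612 (minus) for Rsad2 and chr8:71537547-71537642 (minus) for Bst2, all before the annotated start. Of the 34 genes, 23 had a promoter in the table, and 12 of these (52.2%) held the motif: Isg15, Ifit1, Ifit3, Ifit3b, Ifih1, Ddx58, Stat2, Oas1a, Oas3, Rsad2, Bst2 and Ifitm3. Over all tested genes with a promoter the share was 3.56% (446 of 12544), over genes that rose 6.12% (85 of 1390) and over genes that fell 3.39% (39 of 1151). Stat2 and Oas3 hold the motif and were not called with both pairs. A match describes letters in this window and is not a measured binding site.

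The Hox genes split by their position in the clusters. Hox genes encode the homeodomain factors that set position along the body axis, and paralog groups are numbered from the 3′ end. Of 8 genes of groups 1 to 3, 6 fell and 0 rose. Of 15 genes of groups 4 to 8, 12 fell and 1, Hoxc8, rose. Of 15 tested genes of groups 9 to 13, 12 rose and 1, Hoxb9, fell. Over all tested genes 11.3% rose and 9.37% fell. Medians were -2.70 and -3.03 for groups 1 to 3 and -2.25 and -2.88 for groups 4 to 8 (log2, WT pairs 1 and 2) in the authors' deposited tables. For groups 9 to 13 the medians were 5.18 and 6.12, or 4.99 and 6.12 with Hoxc12 and Hoxc11, which lacked reads in WT pair 1 and WT pair 2 respectively, set to 3 reads over that pair.

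Hoxd3, Hoxa6 and Hoxd4 had the largest falls among groups 1 to 8. Hoxd3 had scaled reads of 96.2 and 55.1 in KO and 1531, 5880.1, 4153 and 6489 in WT, and Hoxd4 had 204 and 83.3 in KO and 1763, 6048, 4524 and 6737 in WT. WT pair 1 a was the lowest WT library for both, and both KO libraries were below it. In the authors' deposited tables their log2 fold changes were -5.40 ± 0.41 and -6.15 ± 0.36 for Hoxd3 and -4.67 ± 0.37 and -5.39 ± 0.38 for Hoxd4 (SE). Hoxa6 had 62.3 and 25.7 in KO and 507, 2988, 2368 and 3171 in WT. Hoxb8 had 1146 and 890.4 in KO and 3413, 14822, 11011 and 15245 in WT. Hoxc5 had 159.6 and 218 in KO and 4001, 4199, 3527 and 3851 in WT, and here WT pair 1 a did not stand apart. Hoxd1 was not called with both pairs. It had 301 and 289 in KO and 84.5, 215, 212 and 185 in WT, higher in both KO libraries than in any WT library. With limma over all 6 libraries 6 genes of groups 1 to 3 and 13 of groups 4 to 8 were lower, against 5 and 8 without KO a and 4 and 6 without KO b.

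Of the 5′ genes, Hoxb13 had 4656 and 3145 scaled reads in KO and 118, 91.7, 53.4 and 20.4 in WT, with log2 fold changes of 5.18 ± 0.38 and 6.78 ± 0.34 (SE; DESeq2 adjusted p = 1.78e-38 and 3.27e-83) in the authors' deposited tables. Hoxd13, which patterns digits and the urogenital tract, had 1105 and 865 in KO and 24.0, 8.25, 2.08 and 4.29 in WT. Hoxc10 had 382 and 644 in KO and 7.68, 9.28, 7.63 and 3.21 in WT. Hoxa11 had 139 and 98 whole reads in KO and 3, 0, 1 and 1 in the WT libraries, a log2 ratio of 6.91 over all WT libraries with an exact 95% interval of 5.67 to 8.54 that covers counting error only. Hoxb9 fell, unlike Hoxa9, Hoxc9 and Hoxd9, which rose. It had 1692 and 1337 in KO and 3903, 15221, 14018 and 12387 in WT, below every WT library. Hoxc8 rose while Hoxb8 fell, with 897 and 1209 in KO and 86.4, 121, 50.7 and 58.9 in WT. Hoxc11 and Hoxa13 were each called with 1 pair. Hoxc11 had 79 and 78 reads in KO and 1, 0, 0 and 0 in WT, and an adjusted p of 0.0641 with WT pair 2, while Hoxa13 had an adjusted p of 0.0782 with WT pair 1 in the authors' deposited tables (DESeq2).

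**Figure D4:**
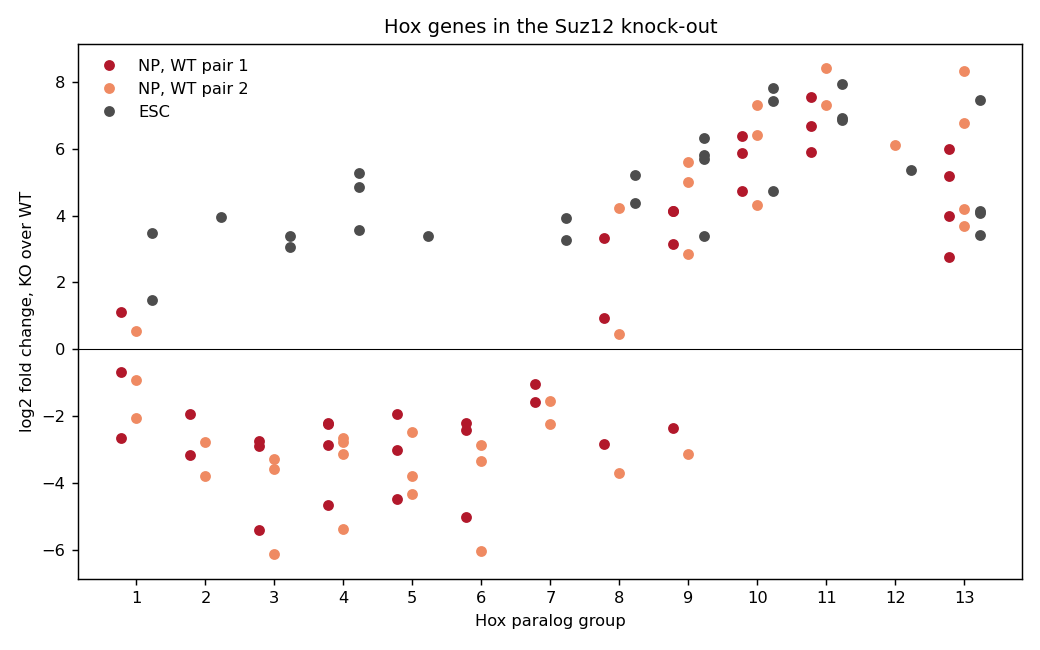
Log2 fold change of KO over WT for each tested Hox gene by paralog group (x axis), in NP with WT pair 1, in NP with WT pair 2 and in ESC, from the authors' deposited tables; genes without a read in that WT pair, or under the expression minimum in ESC, are not drawn. Genes of groups 2 to 7 are all below 0 in NP, every gene that passed the minimum in ESC is above 0 there, and groups 10 to 13 are above 0 in all 3 comparisons.

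In ESC, Hox genes of all 3 position classes were higher in KO. The ESC comparison shares no library with NP, and 11.7% of its 14530 tested genes were higher and 8.36% lower in KO. All Hox genes tested there were called higher: 5 of 5 of groups 1 to 3, 8 of 8 of groups 4 to 8 and 15 of 15 of groups 9 to 13, with medians of 3.38, 4.14 and 5.81 (log2) in the authors' deposited table. The difference between the ESC and NP effects was itself significant with both WT pairs for 5 of 5, 7 of 8 and 2 of 15 of them (adjusted p under 0.05 for the difference of the log2 fold changes). For Hoxc4 the authors' deposited tables gave 4.86 ± 0.69 (log2 fold change, SE) in ESC, against -2.86 ± 0.41 and -3.14 ± 0.27 in NP with WT pairs 1 and 2.

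Neural genes fell. Of 16 listed neural progenitor genes, 11 fell and 0 rose, and of 22 neuronal genes 17 fell and 0 rose, where 9.37% of all tested genes fell and 11.3% rose. Medians were -1.98 and -2.56 for progenitor genes and -3.68 and -4.81 for neuronal genes (log2, WT pairs 1 and 2) in the authors' deposited tables. The neuronal genes summed to 4825 and 6067 scaled reads in KO, 16890 in WT pair 1 a, and 69646, 73057 and 77084 in the other WT libraries. The progenitor genes summed to 10838 and 12327 in KO, 28444 in WT pair 1 a and 56858 to 58987 in the other WT libraries. Both sums were lowest in KO, and WT pair 1 a lay between KO and the rest. With limma over all 6 libraries 11 of 15 progenitor genes with reads and 18 of 22 neuronal genes were lower. Without WT pair 1 a these were 12 and 20, without KO a 9 and 13, and without KO b 10 and 12. In such bulk samples, fewer cells of a type and less RNA per cell cannot be told apart.

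Of the progenitor factors, Sox2 had 899.8 and 494 scaled reads in KO and 3961, 5823, 4327 and 5033 in WT, with log2 fold changes of -2.86 ± 0.34 and -2.82 ± 0.32 (SE; DESeq2 adjusted p = 3.29e-15 and 3.95e-17) in the authors' deposited tables. Pax6 had 358 and 333 in KO and 2004, 2985, 4417 and 4537 in WT. Nes, which encodes the intermediate filament nestin, had 2039 and 1924 in KO and 4331, 9722, 10008 and 9238 in WT. Each was lower in both KO libraries than in any WT library. Fabp7 and the Notch target Hes5 had almost no reads in KO. Fabp7 had 1.09 and 4.90 scaled reads in KO and 609, 3086, 3889 and 3526 in WT. Hes5 had 2 and 1 whole reads in KO and 635, 1153, 3290 and 2124 in WT, a log2 ratio of -9.89 with an exact 95% interval from -12.17 to -8.34 that covers counting error only. Rfx4 had 2 and 1 whole reads in KO and 600, 2341, 2679 and 2019 in WT, a log2 ratio of -9.97 (interval -12.25 to -8.43). The Notch ligand gene Dll1 had 89.7 and 129.8 in KO and 744, 2749.9, 2548 and 2849.6 in WT. Not all progenitor genes fell: Sox1, Hes1, Notch1, Zbtb16 and Lhx2 were not called with both pairs. Sox1 had 327 and 761 in KO and 838, 778, 1072 and 606 in WT, so that KO b lay within the WT range.

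The proneural factor Neurog1 had 31.7 and 7.35 scaled reads in KO and 550.0, 2262, 2191 and 2639 in WT, and Neurog2 had 4.37 and 4.90 and 333, 919, 784 and 696. In the authors' deposited tables their log2 fold changes were -6.20 ± 0.49 and -7.09 ± 0.48 for Neurog1 and -6.98 ± 0.72 and -7.34 ± 0.64 for Neurog2 (SE). The tubulin gene Tubb3 had 528 and 648 in KO and 3082, 10863, 14517 and 11966 in WT, and Map2, another microtubule gene, had 444 and 389 and 1479, 9231, 7714 and 9137. For all 4 genes the KO libraries were below WT pair 1 a, which was in turn the lowest WT library. Elavl4 had 19.7 and 36.7 in KO and 678, 2476, 2549 and 2480.0 in WT. Dcx had 16.4 and 87.0 in KO and 1500.4, 8272, 8657 and 9574 in WT; its adjusted p was 0.00146 with WT pair 1 and 8.37e-75 with WT pair 2 in the authors' deposited tables (DESeq2). Stmn2, Isl1, Onecut1, Onecut2 and Ebf1 were not called with both pairs. Of these, Isl1, a motor neuron factor, had 313 and 238 in KO and 173, 108, 105 and 80.3 in WT, higher in KO, and was called with WT pair 2 only (adjusted p 0.213 and 0.00583, DESeq2 in the authors' deposited tables).

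**Figure D5:**
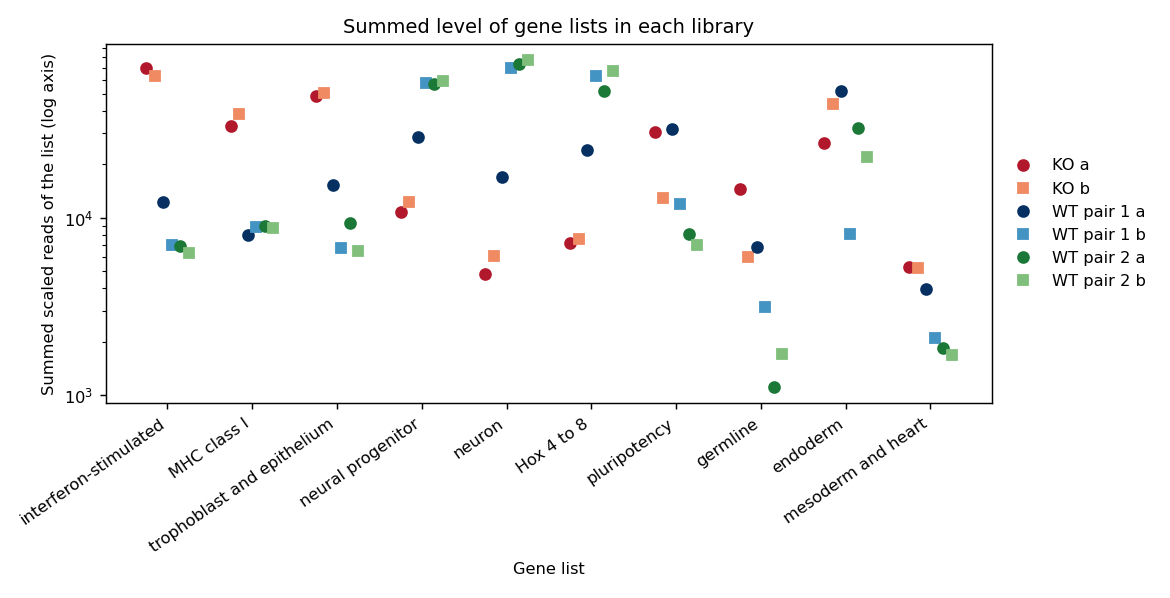
Scaled reads summed over the members of 10 gene lists (x axis) in each of the 6 libraries (points; log axis). The KO libraries are the highest for interferon-stimulated, class I and epithelial genes and the lowest for neural and Hox 4 to 8 genes, while for pluripotency, germline and endoderm genes WT pair 1 a or another WT library lies among or above the KO libraries.

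The positional genes of the neural tube changed in part, where 11.3% of all tested genes rose and 9.37% fell. Of 16 spinal cord patterning genes, 7 fell and 2, Foxa2 and Shh, rose. Dbx1, an interneuron progenitor factor, had 4.37 and 1.22 scaled reads in KO and 1527, 1018, 3449.9 and 2476 in WT. The dorsal genes Pax3 and Pax7 fell: Pax3 had 320.4 and 251 in KO and 871, 3781, 2455 and 3465 in WT, and Pax7 had 19.7 and 29.4 and 252, 1723, 865 and 1130.2. With limma 3 genes of the list were higher and 8 lower over all 6 libraries, 0 and 6 without KO a, and 0 and 2 without KO b, so that leaving out either KO library left 0 genes of the list called higher, with Foxa2 and Shh not called. Shh, the ventral signal made by notochord and floor plate, had 665 and 758 in KO and 155, 40.2, 99.9 and 40.7 in WT, log2 fold changes of 3.13 ± 0.54 and 3.42 ± 0.45 (SE) in the authors' deposited tables. Foxa2, which marks floor plate and also endoderm, had 1955 and 2747 in KO and 1036, 235, 813 and 518 in WT. Both were above every WT library in KO, with WT pair 1 a the highest WT library. Of 14 brain region genes, 3 rose, Otx1 and Six3 among them, and 2 fell (Pax5 and Pax8). Pax5 had 6.56 and 9.80 in KO and 208, 736, 737 and 1070.2 in WT.

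The response genes of retinoic acid did not move as 1 group. Of 19 listed genes, 4 fell, Crabp1, Crabp2 and Nr2f1 among them, and 3 rose (Stra6, Aldh1a2 and Tgm2). Over all tested genes 9.37% fell and 11.3% rose. The binding protein gene Crabp1 had 355 and 259.6 scaled reads in KO and 2688, 3856, 4111 and 3837 in WT, and Crabp2 had 954 and 1288 and 5572, 7361, 8496 and 7598. For Crabp1 the authors' deposited tables gave log2 fold changes of -3.42 ± 0.35 and -3.73 ± 0.28 (SE). Aldh1a2, which makes retinoic acid, had 1630.2 and 1955 in KO and 1345, 219, 191 and 131 in WT, where WT pair 1 a came close to KO. The degrading enzyme gene Cyp26a1, a direct target of the retinoic acid receptors, was not called: it had 15706 and 18129 in KO and 14568, 10018, 13004 and 12156 in WT, with log2 fold changes of 0.47 ± 0.32 and 0.40 ± 0.25 (SE; adjusted p 0.338 and 0.228, DESeq2) in the authors' deposited tables. The receptor gene Rarb had 4553 and 5237 in KO and 3171, 9311, 8719 and 9889 in WT, lower in KO than in 3 of the WT libraries and higher than in WT pair 1 a. With limma over all 6 libraries 20.5% of all genes were higher and 18.5% lower. Of the 17 listed genes with reads, 5 were higher and 5 lower. These were 9 and 6 without WT pair 1 a, 2 and 3 without KO a, and 0 and 3 without KO b.

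Of the 19 listed retinoic acid genes 14 had a promoter in the table, and of these only Cyp26a1 had a match to a direct repeat of receptor sites spaced by 5 bases (AGGTCA or AGTTCA, 5 bases of any kind, then AGGTCA or AGTTCA again, on both strands). It is shown because Cyp26a1 was not called while 7 other genes of the list were. Of 12544 promoters of tested genes, 4 (0.0319%) held a match. The sequence below is RefSeq GRCm38.p6, chr19:37697736-37697807 (plus strand), 5′ to 3′, cropped as above, with the match on the opposite strand in capitals.
Cyp26a1: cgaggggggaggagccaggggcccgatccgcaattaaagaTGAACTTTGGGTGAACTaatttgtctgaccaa

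Epithelial genes rose. Of 13 listed trophoblast and epithelium genes, 10 rose and 0 fell, where 11.3% of all tested genes rose. Krt19 had 15537 and 19166 scaled reads in KO and 3849, 1429, 2706 and 1642 in WT, and the tight junction gene Cldn4 had 16697 and 17733 and 4184, 1890.3, 2752 and 1966. In the authors' deposited tables their log2 fold changes were 2.86 ± 0.37 and 3.01 ± 0.30 for Krt19 and 2.60 ± 0.36 and 2.87 ± 0.27 for Cldn4 (SE). Both KO libraries were above all WT libraries for both genes, with WT pair 1 a the highest WT library. Elf5, a factor of trophoblast and glandular epithelium, had 828 and 530.3 in KO and 129.6, 42.3, 121 and 99.6 in WT, and Plac1 had 1299 and 1024 and 156, 174, 117 and 123. The trophoblast factors Tfap2c and Gcm1 were not called with both pairs, nor was Esx1. Tfap2c had 1324 and 585 in KO and 1573, 859.6, 378 and 477 in WT, and Gcm1 had 9.84 and 7.35 and 49.9, 39.2, 5.55 and 39.6, so both overlapped. Cdh1 rose by 2.16 ± 0.45 and 2.39 ± 0.30 (log2, SE) in the authors' deposited tables; its reads per library were not recovered. With limma over all 6 libraries, 7 of the 9 genes with reads were higher, where 20.5% of all genes were. Fewer members were called without KO a or without KO b, as over all genes.

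Endoderm and mesoderm markers gave partial changes, where 11.3% of all tested genes rose and 9.37% fell. Of 15 tested endoderm genes, 5 factors rose, Gata4, Gata6, Foxa1 and Foxa2 among them, and 0 fell with both pairs. Gata4 had 4602 and 10438 scaled reads in KO and 3777, 959.6, 3030.0 and 2113 in WT, and Foxa1 had 3022 and 3274 and 1155, 339, 929 and 350.3. The yolk sac and liver product genes Afp and Apoa1 did not rise. Apoa1 was lower with WT pair 1 (adjusted p 0.00739) and not called with WT pair 2 (adjusted p 0.501, DESeq2) in the authors' deposited tables. Afp had 190.2 and 2938 in KO and 14600.4, 843, 5444 and 3609 in WT, and the groups overlapped. The authors' deposited table nonetheless gave Afp an adjusted p of 6.18e-10 (DESeq2) with WT pair 1, against 0.232 with WT pair 2, in a fit that the table's name calls paired. With limma over all 6 libraries 2 endoderm genes were higher, with 0 without KO a, 0 without KO b and 9 without WT pair 1 a, which had the highest summed endoderm level of all libraries (51614, against 26396 and 44033 in KO and 8150 to 32023 in the other WT libraries). Of 15 tested mesoderm and heart genes, 3 rose: Tbx20, Nkx2-5 and Myl7, all genes of the early heart. Myl7 had 376 and 1036 in KO and 44.2, 15.5, 40.2 and 24.6 in WT, and Nkx2-5 had 189 and 169 and 17.3, 14.4, 4.16 and 4.29. The early mesoderm factor T had 13.1 and 28.2 in KO and 3.84, 3.09, 2.78 and 3.21 in WT and was not called. By limma 8 genes of this list were higher, 5 without KO a and 3 without KO b. The cardiac troponin gene Tnnt2 was under the expression minimum. Runx1 and Tal1, blood and endothelium factors, rose among 7 tested genes of that list; Runx1 had 652 and 762 in KO and 93.1, 68.0, 75.0 and 102 in WT, while the blood genes Hba-a1 and Ptprc were at or near 0 in all libraries. Of 10 neural crest genes 2 fell (Tfap2b and Ngfr) and 0 rose.

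More pluripotency genes were called higher with WT pair 2 than with WT pair 1. Of all tested genes, 11.8% were higher and 10.1% lower with WT pair 1, and 18.5% and 16.6% with WT pair 2. Of 22 listed genes, 4 were higher and 2 lower in KO with WT pair 1, 16 higher and 1 lower with WT pair 2, and 4 rose (Klf4, Tfcp2l1, Tbx3 and Tdgf1) and 1 fell (Lin28a) with both, where 11.3% of all tested genes rose and 9.37% fell. With limma 4 were higher and 0 lower over all 6 libraries, with 1 higher without KO a and 1 without KO b. Medians were -0.31 with WT pair 1 and 1.98 with WT pair 2 in the authors' deposited tables. Pou5f1, which encodes Oct4, had 2920.3 and 543 scaled reads in KO, 2167 and 812 in WT pair 1 and 212 and 215 in WT pair 2. Nanog had 1912 and 361 in KO, 2858 and 1207 in WT pair 1 and 419.9 and 414 in WT pair 2. In both genes the KO libraries differed widely from each other and overlapped with WT pair 1. Tdgf1, a Nodal co-receptor, rose: it had 1674 and 791 in KO and 392, 108, 84.7 and 58.9 in WT. Tbx3 had 3079 and 1659.5 in KO and 946, 601, 465 and 397 in WT. The list summed to 30343 and 12849 in KO, 31668 and 11905 in WT pair 1, and 8121 and 6994 in WT pair 2. In this sum WT pair 1 a stood above the other WT libraries. WT pair 1 b was nearer to WT pair 2 than to WT pair 1 a. The test of the difference between the WT pairs, given below, called 0 genes. Of 18 germline genes, 5 rose with both pairs (Sohlh2, Tex19.1, Asz1, Fmr1nb and Slc25a31) and 13 were higher with WT pair 2. Fmr1nb had 2129.8 and 1599.5 in KO and 537, 119.6, 361 and 329.9 in WT, and Tex19.1 had 3792 and 1805 and 878, 492, 134 and 319, both with KO above all WT libraries. Dazl had 2037 and 358 in KO and 685, 339, 37.5 and 64.3 in WT, so that KO b fell within the WT range. With limma 9 germline genes were higher, 2 without KO a and 5 without KO b. Sums of the germline list were 14514 and 6039 in KO and 6844, 3157, 1113 and 1702 in WT.

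The WT pairs themselves were compared by the difference of the 2 KO fold changes, in which the shared KO libraries cancel. At an adjusted p under 0.05, 0 genes differed, and the lowest adjusted p was 0.89. With the summed variance reduced by 50%, 119 genes differed. At an unadjusted p under 0.05, 327 genes (2.04%) differed, 278 lower and 49 higher in WT pair 2. The standardised difference had an SD of 0.701, since the KO error counted in both standard errors is not part of the difference, so this test is conservative. With limma on the reads 0 genes were called as well, and 819 had an unadjusted p under 0.05. Without WT pair 1 b, limma set WT pair 2 against WT pair 1 a alone, and more genes were called higher than lower in WT pair 2. Among genes at or above the median mean count, the largest standardised differences toward lower levels in WT pair 2 were those of Alpl, Spp1, Tnfrsf22, Pou5f1, Oasl2 and Anxa6. Alpl, alkaline phosphatase, had 5236 and 2414 scaled reads in WT pair 1, 963 and 1005 in WT pair 2 and 7891 and 5693 in KO, and the WT pairs did not overlap. Toward higher levels in WT pair 2 these were Aqp8, Stmn2, Ina, Hoxb5os, Nell2 and Gap43. Ina, a neuronal intermediate filament gene, had 1047 and 5253 in WT pair 1 and 6034 and 6793 in WT pair 2, where WT pair 1 a alone was low. Hoxb5os is an antisense transcript, and strand was not given in the sources used here, so its reads cannot be told from those of Hoxb5.

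The cell cycle inhibitors of the Ink4 locus, a textbook Polycomb target, rose. Cdkn2a had 2716 and 4056 scaled reads in KO and 427, 147, 315 and 181 in WT, and Cdkn2b had 1513 and 2328 and 132, 44.3, 115 and 65.3. In the authors' deposited tables the log2 fold changes were 3.70 ± 0.38 and 3.77 ± 0.35 for Cdkn2a and 4.58 ± 0.41 and 4.40 ± 0.38 for Cdkn2b (SE). Cdkn1a, the p53 target p21, rose with 6579.6 and 14079.7 in KO and 2981, 1825, 2816 and 2359 in WT, and Cdkn1b fell with 1090.0 and 801 and 1961, 2409, 2560.2 and 2666. These 4 were the called members of a list of 9 CDK inhibitors and D cyclins, of which 3 rose and 1 fell. For all 4 genes the KO and WT values did not overlap. KO lay above all WT libraries for 30.8% of all tested genes and below them for 28.7%. The same libraries gave the calls. Of 12 proliferation genes, 3 fell (Mki67, Top2a and Bub1) and 0 rose, where 9.37% of all tested genes fell and 11.3% rose. Mki67 had 4606 and 1593 in KO and 16199, 15816, 12609 and 14183 in WT, with the lower value in KO b. Of all genes, limma over all 6 libraries called 18.5% lower. Over all 6 libraries limma called 7 of the 12 lower, and 4 without KO b. Of 14 stress response genes, Ddit3, Ddit4 and Psat1 fell and Sesn2 rose.

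Polycomb genes changed in part, where 11.3% of all tested genes rose and 9.37% fell. Of the 6 PRC2 core genes, Suz12 and the methyltransferase gene Ezh2 fell and Rbbp7 rose. Ezh2 had 1617 and 1514 scaled reads in KO and 6379, 7387, 7669 and 7362 in WT, log2 fold changes of -2.15 ± 0.33 and -2.28 ± 0.26 (SE) in the authors' deposited tables. The third core subunit gene Eed had 2329 and 2176 in KO and 2566, 1803, 2150.0 and 1879 in WT and was not called. In ESC the log2 fold change of Ezh2 was -0.17 ± 0.16 (SE; adjusted p 0.531, DESeq2) in the authors' deposited table, and its difference from NP had an adjusted p of 3.69e-06 with WT pair 1 and 3.44e-10 with WT pair 2. Of 6 accessory genes Jarid2 fell; of 12 PRC1 genes 3 rose, Cbx8 and Bmi1 among them, and 0 fell. Bmi1 had 2831 and 3548 in KO and 1487, 1362, 1609 and 1387 in WT, and Cbx8 had 526 and 483 and 169, 215, 175 and 252. Of 8 DNA methylation genes, 5 fell (Dnmt1, Uhrf1, Tet1, Tet2 and Tet3) and 0 rose. Tet1 had 1263 and 932 in KO and 2855, 3051, 2315 and 2435 in WT, and Dnmt1 had 6216 and 3532 and 11204, 10686, 9867 and 10302, without overlap in either gene. With limma 5 of the 8 were lower over all 6 libraries and 2 without KO b.

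Signalling genes changed in both directions, where 11.3% of all tested genes rose and 9.37% fell. Of 17 tested Wnt pathway genes, 4 rose (Wnt6, Wnt11, Sfrp5 and Dkk1) and 6 fell (Wnt1, Wnt3, Sfrp2, Fzd3, Fzd10 and Axin2). With limma 4 were higher and 6 lower over all 6 libraries, and 0 and 3 without KO b. Wnt1, the roof plate and midbrain ligand, had 16.4 and 4.90 scaled reads in KO and 470.4, 2141, 1006 and 1414 in WT, log2 fold changes of -6.90 ± 0.55 and -6.86 ± 0.54 (SE) in the authors' deposited tables. Axin2, a feedback target of the pathway, had 647 and 295 in KO and 898, 1457, 945 and 1089 in WT. Of 22 axon guidance genes, 10 fell and 2 rose (Unc5b and Sema3c). The commissural receptor gene Robo3 had 30.6 and 19.6 in KO and 646, 6053, 3482 and 6682 in WT, and the netrin receptor gene Dcc had 132 and 50.2 and 502, 4946, 1861 and 3107. In both the KO libraries were far below WT pair 1 a, the lowest WT library. With limma 10 genes of the list were lower over all 6 libraries, 6 without KO a and 3 without KO b. Sema3c rose with 4910.1 and 4830.4 in KO and 1404, 1067, 1229.8 and 1139.8 in WT. Of 13 BMP genes 2 rose (Bmper and Id1), and of 16 collagen genes 2 rose (Col5a2 and Col6a2) and 2 fell (Col2a1 and Col12a1), shares near those of all tested genes. Without KO b limma called 0 genes of either list higher. Of 14 tested imprinted genes, H19, Peg3 and Phlda2 rose. Phlda2 had 1234 and 524 in KO and 227, 123, 88.1 and 131 in WT. Of 10 genes often used as references, Pgk1 fell, with log2 fold changes of -1.59 ± 0.33 and -1.62 ± 0.26 (SE) in the authors' deposited tables and the other 9 were not called.

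How far the NP changes were those of ESC was asked over 14530 genes tested in all 3 comparisons. Of 1540 genes that rose in NP, 434 (28.2%) were higher and 84 (5.45%) lower in ESC KO, where 11.7% and 8.36% of all genes were. Of 1303 genes that fell in NP, 182 (14%) were lower and 130 (9.98%) higher in ESC KO. The ESC and NP effects differed with both WT pairs for 1887 genes (13%), 882 of them higher in NP and 1005 lower. Interferon-stimulated genes are an example: of 22 tested in ESC, 3 were higher and 2 lower there, with a median of 0.23 in the authors' deposited table, and for 17 the effect differed from that in NP with both pairs. Isg15, Ifit1, Ifit3, Rsad2, Usp18 and Rtp4 were under the expression minimum in ESC. Of the 18 germline genes, 13 were higher and 0 lower in ESC KO. Cdkn2a was higher in ESC KO as well, by 2.88 ± 0.29 (log2, SE; adjusted p 2.08e-20, DESeq2) in the authors' deposited table. Nr2f1, a neural retinoic acid target, had log2 fold changes of 3.78 ± 0.99 for ESC, and -3.20 ± 0.40 and -3.79 ± 0.28 for NP with either pair, in the authors' deposited tables, a difference with adjusted p of 7.24e-09 and 1.42e-11.

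The deposited ESC region lists, named for differential Suz12 and H3K27me3 signal with WT, were set beside the NP changes. Their headers give neither direction nor the group compared with WT, so they are used only as places. Of 12544 tested genes with a start in the GRCm38.p6 table, 1441 had it in a Suz12 region and 2329 in an H3K27me3 region. Of genes at Suz12 regions 20.1% rose and 14.9% fell, at H3K27me3 regions 444 of 2329 rose and 320 fell, and at neither 9.23% rose and 8.08% fell, against 11.1% and 9.18% of all. The start lay in both kinds of region for 5 of 5 placed Hox genes of groups 1 to 3 and 8 of 8 of groups 9 to 13, and in each kind for 7 of 8 of groups 4 to 8. Of 13 placed spinal cord patterning genes, all had it in both kinds of region. None of the 23 interferon-stimulated genes with a start had it in either (0 of 23). Class I genes were at H3K27me3 regions in 7 of 11 cases and germline genes in 11 of 17, against 18.6% of all. The promoters of genes that rose held a median of 15 CpG in 300 bases, against 20.5 for genes that fell and 20 for all.

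Values of the rescued NP are given beside the KO effect; they share the KO libraries with it. In KO-L over KO, Suz12 had a log2 fold change of 1.35 ± 0.21 (SE) and in KO-S over KO 1.09 ± 0.20 in the authors' deposited tables. Isg15 had -5.47 ± 0.28 and -3.89 ± 0.27. Of the 34 interferon-stimulated genes 34 were lower with the long isoform than without rescue (14.5% of all genes were) and 32 with the short isoform (18.4% of all). The medians of this list were -3.31 (KO-L) and -3.19 (KO-S) in the authors' deposited tables. Hoxb13 had -2.80 ± 0.24 (KO-L) and -2.87 ± 0.20 (KO-S), and Hoxd3 had 2.36 ± 0.43 and 4.86 ± 0.25, in the authors' deposited tables. The neuronal list had medians of 2.19 (KO-L) and 2.93 (KO-S), and the pluripotency list 2.27 (KO-L) and -0.47 (KO-S). For Pou5f1 the authors' deposited tables gave 1.94 ± 0.82 (KO-L) and -0.56 ± 0.98 (KO-S), and for Neurog1 3.95 ± 0.61 and 5.98 ± 1.00. Of a list of 5 genes, Xist and Y-linked genes, 4 were lower than in KO with either isoform.

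At the edge of the expression minimum, H3c1, LOC102633783 and A330049N07Rik were the 3 genes just above it, with their lower mean scaled count of the 2 comparisons at 10 for H3c1 and 10.01 for LOC102633783 and A330049N07Rik. Efcab8, Smim41 and Smim6 were just below it, at 9.99, 9.99 and 9.99. H3c1 had 14.2 and 6.12 scaled reads in KO and 12.5, 12.4, 11.1 and 8.57 in WT, and Smim6 had 8.75 and 28.2 and 1.92, 4.12, 2.78 and 2.14.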

How the data were processed

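RNA of 6 NP libraries was described through 5 comparison tables that the authors deposited. The submitters' processing notes name TopHat, Bowtie, DESeq2 and DiffBind and the builds mm10 and dm3, with no role, and versions and strand setting are not given in the sources used here. Per the file headers, each deposited table holds for every gene the mean scaled count over its libraries (a signal of read coverage, here the mean scaled count), the log2 fold change with its standard error, the test statistic (a score), and raw and adjusted p-values, all computed by the authors and named as DESeq2 names them. The file names call the fits paired. The 2 deposited lists of ESC regions (2865 for Suz12 and 6882 for H3K27me3) carry 1 value between 0 and 1 per region, recorded here as a p-value; the authors' files do not name it, and a false discovery rate is equally possible. The second NP table was deposited as WT over KO, and its sign was turned. Per-sample values not used numbered 0.

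Whole reads of each library were recovered from the digits of the mean scaled counts of the tables, uniquely for 99.18% of tested genes. On simulated data 981 of 993 genes were recovered and 0 were wrong. The DESeq2 fits of the authors were the main tests, since no table of counts was used. The difference between the WT pairs, or between ESC and NP, was tested from the difference of 2 log2 fold changes against its summed variance (normal distribution, Benjamini-Hochberg over all tested genes). limma (trend) on log2(scaled reads + 1) was run on the recovered reads, KO against WT, with and without each library and with a replicate block; these alternatives were chosen after the data were seen. Both region lists were set on starts of the RefSeq GRCm38.p6 gene table.

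The genes named were Suz12, members of 33 gene lists, the 12 genes per direction with the largest smaller change of the 2 comparisons among those at or above the median mean count, the 6 per direction with the largest standardised difference between WT pairs, and the 3 on either side of the minimum. The members and lists were chosen with earlier results of these data known. Some list members are counted but not reported by name here. Counting intervals are exact at 95%. The libraries held 21397079 to 38795861 recovered reads. Software was Python 3.11.15, numpy 2.4.6, pandas 2.3.3, scipy 1.17.1, sympy 1.14.0, matplotlib 3.10.9, R 4.3.3 and limma 3.58.1.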

Additional observations from a re-analysis of the deposited data

Results flagged for a closer look

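In 8 of 37 genes examined over the 4 WT libraries, the lowest library lay far below the other 3, and in each it was WT pair 1 a. Its scaled reads were 609 for Fabp7, 1175 for Msx3, 404 for Myt1, 585 for Nhlh2, 1500 for Dcx, 753 for Tagln3, 678 for Elavl4 and 1047 for Ina. On the scale of log2(scaled reads + 1), the gap to the next library exceeded 0.829 of the range of the 4 libraries. Chance gives this in about 1 of 20 groups that were not picked by their values. The 8 genes were named for their change against WT or for a difference between the WT pairs, so that rate does not hold here. These are neural genes and 7 of the 8 are among the 12 with the largest fall in KO, and the fold changes with WT pair 1 include this library. The genes share libraries and are not separate observations.

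The KO effect differed between ESC and NP with both WT pairs for 1887 genes by a test of the difference of the log2 fold changes.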

How the results depend on the processing

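With both WT pairs at an adjusted p under 0.01, the count of fallen genes was 982, and with WT pair 1 it was 1052. At that threshold the genes changed in both NP and ESC numbered 249 (higher in both), 67 (lower in both), 37 (higher in NP, lower in ESC) and 62 (lower in NP, higher in ESC). With the summed variance of the pair difference reduced by 50%, 119 genes differed between the WT pairs. The replicate block, which pairs KO a with the a library of each WT pair, left 827 higher and 517 lower genes with WT pair 1, and 824 and 503 with both pairs. The block that pairs KO a with the b libraries left 2098 and 1670 with both pairs. The labels do not state which KO library belongs to which WT library, and this was not worked out here. Leaving out 1 library at a time in limma gave 0 to 3016 higher and 1 to 2744 lower genes with WT pair 1, 647 to 3739 and 355 to 3328 with WT pair 2, and 0 to 2724 and 1 to 2583 with both. The pair difference then gave 0 to 348 genes. In the fits that left out 1 library, the spread was estimated over all libraries kept, those of the other WT pair included. A lone library is assumed to vary like the other groups. For Suz12 and the 24 genes with the largest changes no direction turned under the alternatives run. The balance of the pair difference was not the same in each setting. By the difference of the 2 KO fold changes, at an unadjusted p under 0.05, 49 genes were higher and 278 lower in WT pair 2. Without WT pair 1 b, limma called more genes higher than lower in WT pair 2. That fit set WT pair 2 against WT pair 1 a alone and used an adjusted p, so the balances are not like for like. Of the 232 further values, 221 stayed within the limits set and 11 moved, all of them counts of list members at an adjusted p under 0.01. Depth limits genes with fewer than about 10 mean scaled reads, which were not tested. Only 2 KO libraries were available, and they weigh in each comparison.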
